A study of Mus musculus with 6 samples.

Results

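The resting expression state of As4.1 cells was described from the 2 arrays of vehicle-treated cells, taken by sample title from 6 arrays in all. As4.1 is an established mouse line that came from a kidney tumour of a mouse carrying a viral oncogene under renin-gene regulatory sequence, so it is 1 transformed clone and not primary tissue. By the series' design text there were 3 groups with 2 separate cultures in each, which received vehicle, hydrogen peroxide or an interleukin. All 3 groups are the same line, with no further allele or agent named, and the labels give neither the interleukin, the doses nor the times. The values are MAS5 signals of the Affymetrix Mouse Genome 430 2.0 array, a linear brightness per probe set, and each gene was represented by the probe set, among those with 1 gene symbol, that was brightest in vehicle. This gave 18193 genes, ranked by mean log2 vehicle signal. Probe sets differ in how strongly they bind their transcript, so a rank orders signals and is not an order of transcript numbers.

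Renin is the hormone-like protease that starts the renin-angiotensin cascade, and in the adult kidney it is made by juxtaglomerular cells in the wall of the arteriole that feeds the glomerulus. These cells descend from stromal progenitors marked by the transcription factor Foxd1, which also give rise to vascular smooth muscle cells, pericytes and interstitial fibroblasts. They are known for carrying contractile proteins beside renin, for gap junctions, and for a renin gene driven by cAMP signalling. The renin genes themselves are not analysed here.

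A signal was read against 83 probe sets for olfactory, vomeronasal and bitter taste receptors, which most cells do not express. The 95th percentile of their signals served as the background level, which was 153.6 on vehicle array 1 and 139.4 on vehicle array 2. A gene was above background where it exceeded this level on both arrays, and near background where it exceeded it on neither. Of the 18193 genes 11024 (60.6%) were above, 6007 (33.0%) were near and 1162 (6.4%) lay between, exceeding it on 1 array. At the threshold, Gsc2, at 156.6 and 139.5, was just inside, and Sh2d3c, at 149.3 and 139.3, just outside. Genes above background differed between the vehicle arrays by a median of 1.09-fold, and 38 of them (0.34%) by more than 2-fold. Near background the median was 1.89-fold and 2808 genes (46.75%) exceeded 2-fold, so the order of values there is unreliable. Genes with 1 probe set were above background in 45.2% of cases and genes with 3 or more in 83.5%. The cause of this difference was not tested.

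**Figure D1:**
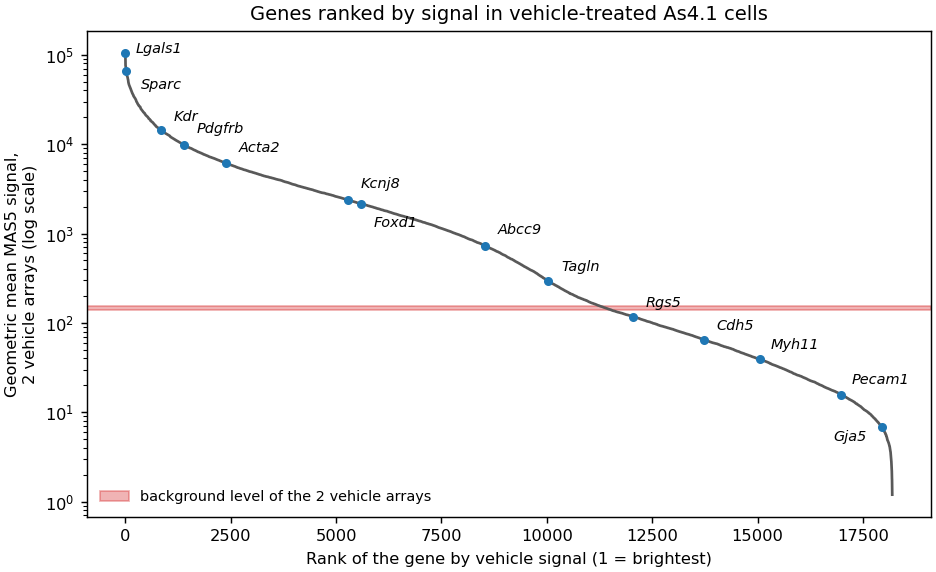
Geometric mean MAS5 signal of each of 18193 genes on the 2 vehicle arrays (vertical log axis, no unit) against its rank (horizontal axis), with 14 genes marked; the red band spans the background levels of both arrays, 139.4 to 153.6. Signals run from 103894 for Lgals1 down through the band, with Kcnj8 and Foxd1 above it and Rgs5, Cdh5, Myh11, Pecam1 and Gja5 below it.

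The median signal was 202.8 on both vehicle arrays and 191.7 to 232.0 on the others, and the ratio of 3' to 5' beta-actin control probe sets, a sign of RNA integrity, was 1.224 to 1.261 in vehicle, 1.316 to 1.348 with hydrogen peroxide and 1.456 to 1.554 with the interleukin, so the 3 groups did not overlap. Interleukin array 2 stood apart at low signals, with a background level of 271.6 against 126.7 to 160.2 on the other arrays.

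The brightest signal was that of Lgals1, galectin-1, a secreted sugar-binding protein of mesenchymal cells, at 102511 on vehicle array 1 and 105276 on vehicle array 2. The 30 brightest genes included 18 cytosolic ribosomal proteins, led by Rps29 at 87264 and 89529, the elongation factor Eef1a1 at 76549 and 80931, and the growth-related Tpt1 at 72252 and 73713. Cytoskeletal genes in this set were Actg1, cytoplasmic gamma-actin, at 69799 and 73352, Actb at 62605 and 68081, and the actin-binding Tmsb10 at 66214 and 70941. Gsn, which encodes the actin-severing protein gelsolin, read 71473 and 73807. The matrix glycoprotein Sparc, at 69810 and 63176, and the ferritin heavy chain Fth1, at 65495 and 66586, were also among them. The 30 genes differed between the arrays by a median of 1.04-fold and together held 3.9% of the signal summed over genes, whereas the first 100 held 10.5%. The arrays shared 25 of their 30 brightest genes, 92 of 100 and 473 of 500.

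The make-up of this set depended on probe design. Of the 30 probe sets 25 were of types that can match several transcripts, as ribosomal protein probe sets often can, and only 7 of the 30 genes stayed in the first 30 when these types were left out. The list then held 6 ribosomal proteins and, beside Eef1a1 and Sparc, the Wnt-binding secreted protein Sfrp2 at 58933 and 59100, the replication clamp Pcna at 56973 and 57556, the gap junction gene Gja1, the intermediate filament gene Vim, fibronectin (Fn1), the chemokine Cxcl12 at 47021 and 49173, and the inhibin subunit Inhbb at 44659 and 46337. Sfrp2, Cxcl12 and Inhbb were named after their values were seen. Lgals1 was absent from that list, and Gsn remained through another probe set at 56692 and 57650.

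**Figure D2:**
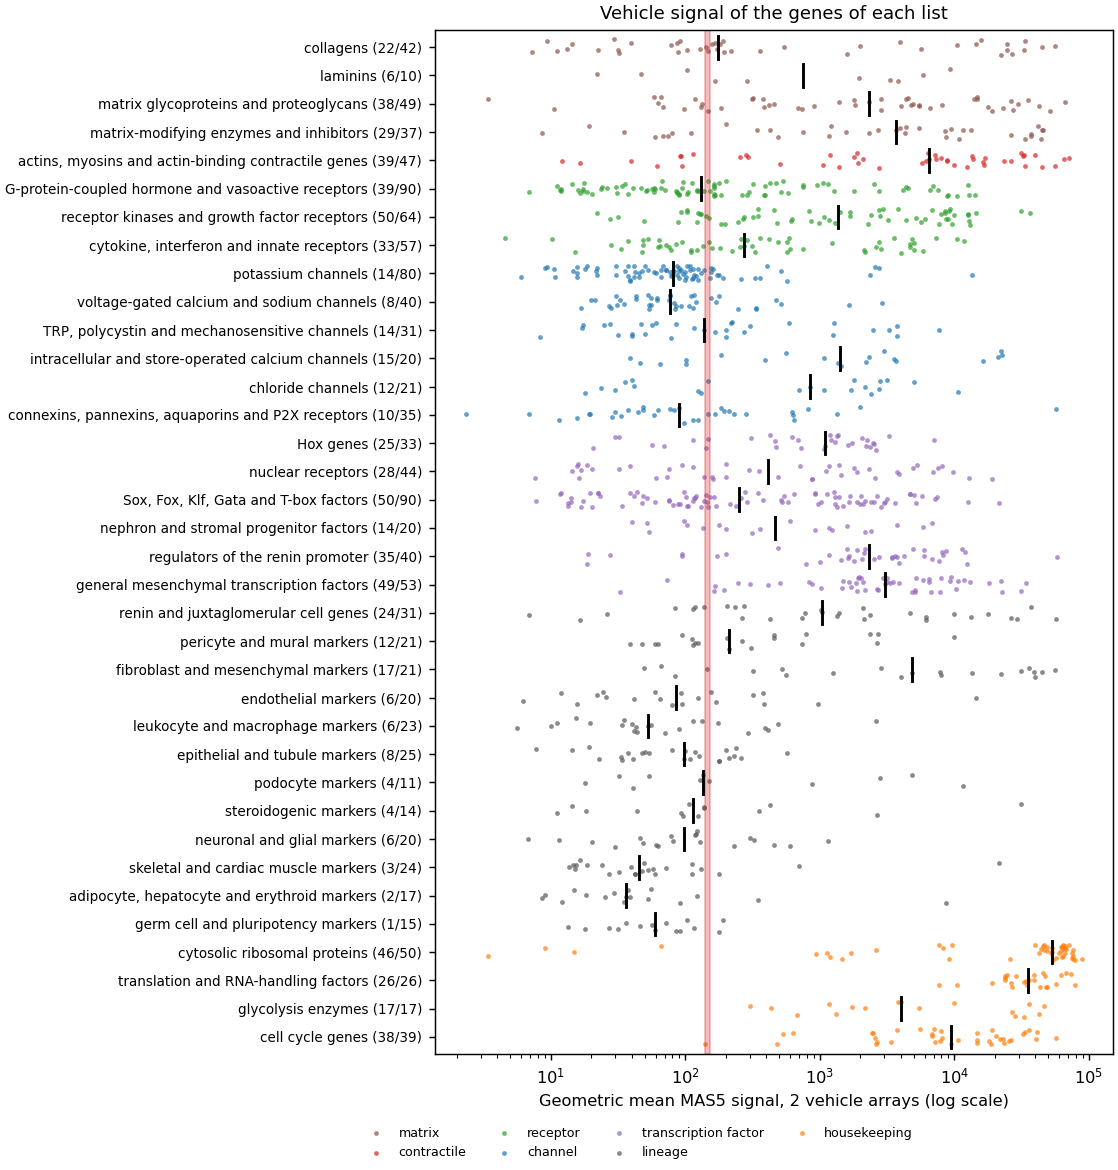
Geometric mean MAS5 signal on the 2 vehicle arrays (horizontal log axis) for the members of 36 gene lists (rows; 1 dot a gene, black bar the list median, red band the background levels); numbers in brackets give members above background over members measured. Ribosomal, translation and cell cycle genes sit to the right, matrix, contractile and mesenchymal genes reach high signals, and most potassium channels and most markers of other lineages lie at or left of the band.

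Genes for several chains of interstitial and basement membrane collagen were among the brightest in vehicle. Of 42 collagen genes 22 (52.4%) were above background, against 60.6% of all genes, and the signal was concentrated in a few: 8 were among the 500 brightest genes. Col1a2 read 53282 and 59557 and Col1a1 read 42337 and 48001, the chains of fibrillar type I collagen. Col6a1 at 30536 and 36046 and Col6a2 at 31540 and 34829 encode beaded-filament collagen VI, Col4a1 at 22082 and 27217 basement membrane collagen, and Col3a1 at 20873 and 23221 the fibrillar partner of type I. In each of these 6 genes vehicle array 2 read higher. Of 10 laminin chains 6 were above background, with Lamb1 at 8496 and 10022 and Lama4, a chain of vascular basement membranes, at 3270 and 3325.

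Among 49 matrix glycoproteins and proteoglycans 38 (77.6%) were above background, with a median signal of 2305 beside 536.1 for all genes. Fn1, which encodes fibronectin, read 47247 and 55349, the follistatin-like Fstl1 41111 and 44653, and the small proteoglycan Bgn 36126 and 34640. Mgp, an inhibitor of calcification, stood at 26142 and 26382. Decorin (Dcn), a collagen-binding proteoglycan typical of fibroblasts, stood at 3905 and 4046, and its relative lumican (Lum) was near background at 35.5 and 120.9. Matrix-modifying enzymes and their inhibitors were above background in 29 of 37 cases (78.4%). Pcolce, which speeds collagen maturation, read 45865 and 44844, the gelatinase Mmp2 41704 and 46287, the protease inhibitor Timp2 44887 and 44248, the collagen chaperone Serpinh1 42596 and 41705, and the crosslinking oxidase Lox 32381 and 34309.

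Cytoplasmic actins and non-muscle myosin were bright in vehicle, and the defining genes of differentiated smooth muscle ranged from clearly above background to near it. Of 47 actin, myosin and actin-binding genes 39 (83.0%) were above background, with a list median of 6419. The non-muscle myosin heavy chain Myh9 read 32520 and 34701, the LIM protein Csrp2 43660 and 45948, tropomyosin Tpm4 39578 and 40377, caldesmon Cald1 31440 and 33975, and calponin-3 (Cnn3) 31835 and 32985. Smooth muscle actin (Acta2) was above background at 6147 and 6113, but on a probe set that can match several actins, while its 2 others read 50.1 and 37.8, and 20.2 and 7.1. Smoothelin (Smtn), a marker of contractile smooth muscle, read 2075 and 2107. Further smooth muscle genes were dim: Tagln at 376.1 and 229.3 and Cnn1 at 203.5 and 315.7 were just above background, and the smooth muscle myosin heavy chain Myh11, at 20.0 and 76.3, and the actin nucleator Lmod1, at 128.6 and 29.3, were near it. Both probe sets of Myh11 were near background.

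A short motif known from contractile genes was looked for in the promoters of these members. The CArG box binds the serum response factor, and it was searched on both strands of the 250 bases before the start of each gene with exactly 1 entry in the RefSeq promoter table (GRCm38.p6). It stood in 7 of 33 contractile genes (21.2%) and in 143 of 11791 genes of all kinds (1.2%). It stood in 6 of the 29 contractile genes above background (20.7%) and, in Actc1 (cardiac actin), in 1 of the 4 near it. The matches, with the box in capitals and 12 bases on either side, 5' to 3' on the gene's strand, are shown because they place the motif in 5 bright or moderately bright genes and in 1 that was near background. The other match is not printed.
Actg1 (chr11:120348564-120348597, minus strand): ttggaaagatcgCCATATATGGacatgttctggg
Cnn2 (chr10:79988532-79988565, plus strand): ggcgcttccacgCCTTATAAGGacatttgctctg
Vcl (chr14:20929159-20929192, plus strand): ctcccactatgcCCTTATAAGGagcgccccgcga
Srf (chr17:46556203-46556256, minus strand): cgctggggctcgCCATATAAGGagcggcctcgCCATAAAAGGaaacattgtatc
Myl9 (chr2:156775291-156775324, plus strand): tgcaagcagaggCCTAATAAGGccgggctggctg
Actc1 (chr2:114052901-114052934, minus strand): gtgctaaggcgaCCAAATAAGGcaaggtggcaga
Srf, the serum response factor itself, holds 2 boxes in this stretch. A match describes letters only, and no binding was measured.

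Of 90 G-protein-coupled hormone and vasoactive receptors 39 (43.3%) were above background. Lpar1, a lysophosphatidic acid receptor, read 13386 and 15171, the Wnt receptors Fzd1 and Fzd2 read 12771 and 12906, and 11771 and 13296, the Hedgehog transducer Smo 9390 and 8497, and the thrombin receptor F2r 8092 and 9616. The bradykinin receptor Bdkrb1, at 5773 and 7524, and the oxytocin receptor Oxtr, at 4208 and 4791, were named after their values were seen. The succinate receptor Sucnr1, at 7.6 and 35.6, was near background.

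Receptor kinases and growth factor receptors were above background in 50 of 64 cases (78.1%). The transforming growth factor receptor Tgfbr2 read 35414 and 36978. The platelet-derived growth factor receptors, which mark fibroblasts and mural cells, were both clearly above background: Pdgfra read 30470 and 32116 and Pdgfrb 10045 and 9735, and every probe set of either gene was above background on both arrays. Kdr, a vascular endothelial growth factor receptor usually linked with endothelium, read 13235 and 15690 on its only probe set, and the growth hormone receptor Ghr 13115 and 12825. Cytokine, interferon and innate receptors were above background in 33 of 57 cases (57.9%). They included Il6st, the signalling chain shared by several cytokines, at 11556 and 11809, the tumour necrosis factor receptor Tnfrsf1a at 9730 and 11064, the oncostatin M receptor Osmr at 6812 and 7769, the cytokine receptor Il4ra at 5709 and 5899, and Il1r1, which binds the interleukin Il1b, at 4787 and 4558.

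Ion channels gave fewer signals. Of 80 potassium channel genes 14 (17.5%) were above background, and the list median was 81.5. Kcne4, a regulatory subunit, read 13326 and 13751. The pore subunits of the ATP-sensitive channel, Kcnj8 and Kcnj11, read 2405 and 2327, and 2545 and 2934, and Abcc9, the regulatory partner of Kcnj8 in vascular cells, read 694.6 and 769.4. The second probe set of Kcnj11 read 164.9 and 83.5, so its call rests on 1 probe set. The background potassium channel Kcnk5 read 2545 and 2577. Of 40 voltage-gated calcium and sodium channel genes 8 were above background, among them the L-type pore subunit Cacna1c at 1502 and 1780.

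Intracellular and store-operated calcium channels, pumps and pores were above background more often than all genes (60.6%). TRP, polycystin and mechanosensitive channels were so less often than all genes, though more often than potassium channels. Of 20 intracellular and store-operated calcium channels, pumps and pores 15 were above background, with the reticulum calcium pump Atp2a2 at 21159 and 23095 and the inositol trisphosphate receptor Itpr3 at 2076 and 2362. Of 31 genes for TRP, polycystin and mechanosensitive channels 14 (45.2%) were, with Trpm7 at 8677 and 6695 and the stretch-gated Piezo1 at 3493 and 3957. Of 21 chloride channels 12 (57.1%) were, with the scramblase Ano6 at 9954 and 11307 and the volume-regulated Lrrc8c at 5178 and 4796. Connexins, pannexins, aquaporins and P2X receptors were above background in 10 of 35 cases (28.6%). Gja1, the widely expressed gap junction protein, read 58647 and 55458, and 4 of its 5 other probe sets were above background. Gja5, a gap junction protein of renin cells, read 9.1 and 5.2, and Gja4 lay between at 92.1 and 140.6.

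Of 33 Hox genes, which set position along the body axis, 25 (75.8%) were above background. Members of paralog groups 9 to 13, the most posterior, were above background in 13 of 14 cases, groups 5 to 8 in 7 of 9 and groups 1 to 4 in 5 of 10. All 7 measured genes of the Hoxc cluster were above, with 6 of 9 in Hoxa, 7 of 9 in Hoxb and 5 of 8 in Hoxd. Hoxa9 read 6962 and 7259, Hoxa10 3420 and 3149, Hoxc8 2571 and 2610, Hoxb13 2470 and 2454, and Hoxd13 1237 and 1181. Hoxd12, near background, was the exception among the posterior genes, and Hoxa7 was discordant between the arrays at 54.9 and 395.4.

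**Figure D3:**
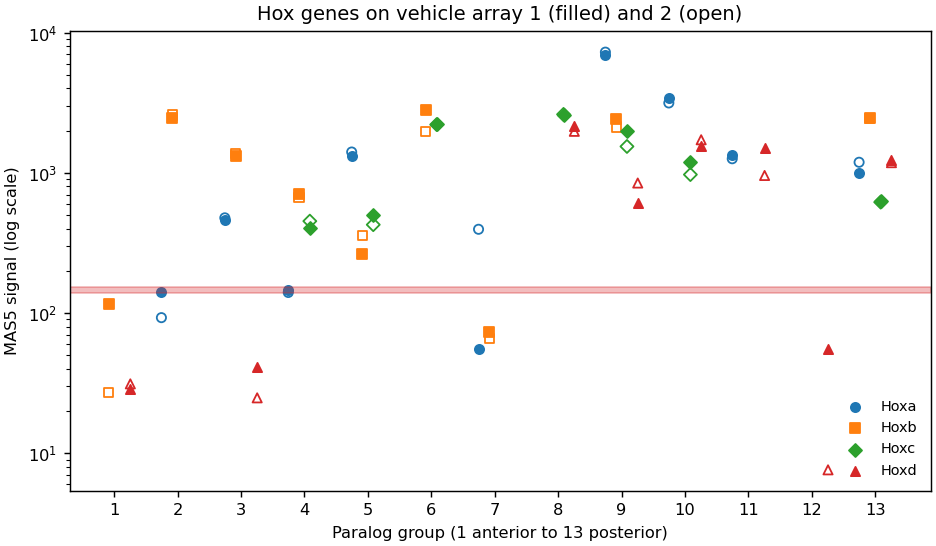
MAS5 signal (vertical log axis) of 33 Hox genes on vehicle array 1 (filled) and 2 (open) by paralog group (horizontal axis), with the cluster given by colour and shape and the background levels as a red band. From group 8 upward every gene shown except Hoxd12 lies above the band on both arrays.

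Among 44 nuclear receptors 28 (63.6%) were above background. The progesterone receptor Pgr read 18193 and 19609 and the oestrogen receptor Esr1 12290 and 13502. All 3 probe sets of either gene were above background on both arrays, the others of Pgr at 1375 and 1334 and at 721.0 and 716.5. The glucocorticoid receptor Nr3c1 read 9595 and 9752, and the vitamin D receptor Vdr, a known repressor of renin transcription, 8408 and 7657. Nr5a1, the steroidogenic factor of adrenal and gonad, was near background at 137.0 and 135.6.

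Several factors tied to the stromal lineage of the kidney were above background at moderate signals. Foxd1, the marker of renin cell progenitors, read 2313 and 1992 and Tbx18, a mural cell factor, 2405 and 2361. In the list of nephron and stromal progenitor factors 14 of 20 (70.0%) were above background, beside 60.6% of all genes. They included Meis2 at 6772 and 6751, Emx2, a urogenital homeobox factor, at 6376 and 5322, Meis1 at 1648 and 1517 and Osr1 at 1663 and 828.0. The nephron progenitor factor Six2 lay between at 65.9 and 145.8, and Wt1 was near background at 59.6 and 48.4. In the families Sox, Fox, Klf, Gata and T-box 50 of 90 (55.6%) were above background, with Sox4 at 22550 and 20165, Klf4 at 13259 and 12118, and Gata6 at 2798 and 2935. Gata4, named after its values were seen, read 2445 and 2628.

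Regulators of the renin promoter were above background in 35 of 40 cases (87.5%). Nfix, a nuclear factor I family member, read 55633 and 59924, Sp1 11809 and 12911, the coactivator Crebbp 6961 and 8487, and the homeobox partner Pknox1 2170 and 2952. Of the 53 general mesenchymal transcription factors 49 (92.5%) were above, with Cebpb at 35118 and 33511, Hif1a at 31295 and 31560, Snai2 at 21939 and 23226 and Prrx1 at 7587 and 8194. The 2 lists were written with earlier results of these data known, so their high shares describe the lists.

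Lineage markers differed widely, with fibroblast markers mostly above background and markers of most other lineages mostly near it. In RNA from whole cultures, fewer cells of a type and less RNA per cell cannot be told apart. Of 31 genes of renin and juxtaglomerular cells 24 (77.4%) were above background, including the cAMP effector subunit Prkar1a at 28745 and 29760, the prorenin receptor Atp6ap2 at 28932 and 23793, Crip1 at 18699 and 17118, the phosphodiesterase Pde3b at 12777 and 13588, and the adenylyl cyclases Adcy5 at 1927 and 2307 and Adcy6 at 1893 and 2293. Of its 3 defining members Kcnj8 was above background, and Rgs5, at 143.4 and 95.3, and Gja5 were near it. All 4 probe sets of Rgs5 read at or below the background level on both arrays. Angiotensinogen (Agt), at 18.3 and 37.1, was also near background. So was Olfr78, an olfactory receptor gene of this list, but its probe sets are among those that set the background level. Since renin itself was not analysed, the calls of these 3 defining genes do not test the label of a renin-lineage line.

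Fibroblast and mesenchymal markers were above background in 17 of 21 cases (81.0%), with a median signal of 4801. Dermatopontin (Dpt), a fibroblast matrix protein, read 42974 and 36865, S100a4 38702 and 38924, the adventitial marker Cd34 35489 and 36159, the surface receptor Cd44 13149 and 13813, and Thy1 1365 and 1153. Pericyte and mural markers were above in 12 of 21 cases (57.1%), close to the 60.6% of all genes: Pdgfrb and Cd248, at 2603 and 2690, were well above, Notch3 (416.6 and 505.4) and Cspg4 (211.2 and 329.9) less so, and Higd1b, at 124.8 and 12.2, was near background.

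Markers of other lineages were mostly near background. Of 20 endothelial markers 6 were above, including Kdr, Plvap and Egfl7 at means of 14462, 974.0 and 384.4. Near background were Pecam1 at 14.7 and 16.9, Cdh5 at 55.2 and 75.8 and Tie1 at 50.2 and 9.7. Of 23 leukocyte markers 6 (26.1%) were above, among them Cd14, a coreceptor for bacterial lipid, at 2627 and 2563, while the pan-leukocyte Ptprc read 25.1 and 48.0 and Cd3e 73.9 and 22.9. Of 25 epithelial and tubule markers 8 were above, none with a mean over 570.4. Cdh1, at 73.4 and 15.7, and Umod, at 10.6 and 34.3, were near background, and Epcam read 492.5 and 648.4 on one probe set but 88.9 and 21.1 on the other.

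Of 11 podocyte markers 4 (36.4%) were above background, with the adhesion protein gene Kirrel at 10801 and 12544, whereas Podxl read 57.6 and 29.0. Steroidogenic markers were above in 4 of 14 cases (28.6%): the electron carrier Fdx1 read 32025 and 30994 and the cholesterol carrier Star 404.4 and 311.4, with all 3 of its probe sets above background, while the side-chain cleavage enzyme Cyp11a1 was near background. Neuronal and glial markers were above in 6 of 20 cases, skeletal and cardiac muscle markers in 3 of 24 (12.5%), adipocyte, hepatocyte and erythroid markers in 2 of 17 (11.8%) and germ cell and pluripotency markers in 1 of 15 (6.7%). Troponin C of slow and cardiac muscle (Tnnc1) stood far above the rest of the muscle list, at 20451 and 22477 on its only probe set, whereas Myh6 read 29.2 and 6.4.

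**Figure D4:**
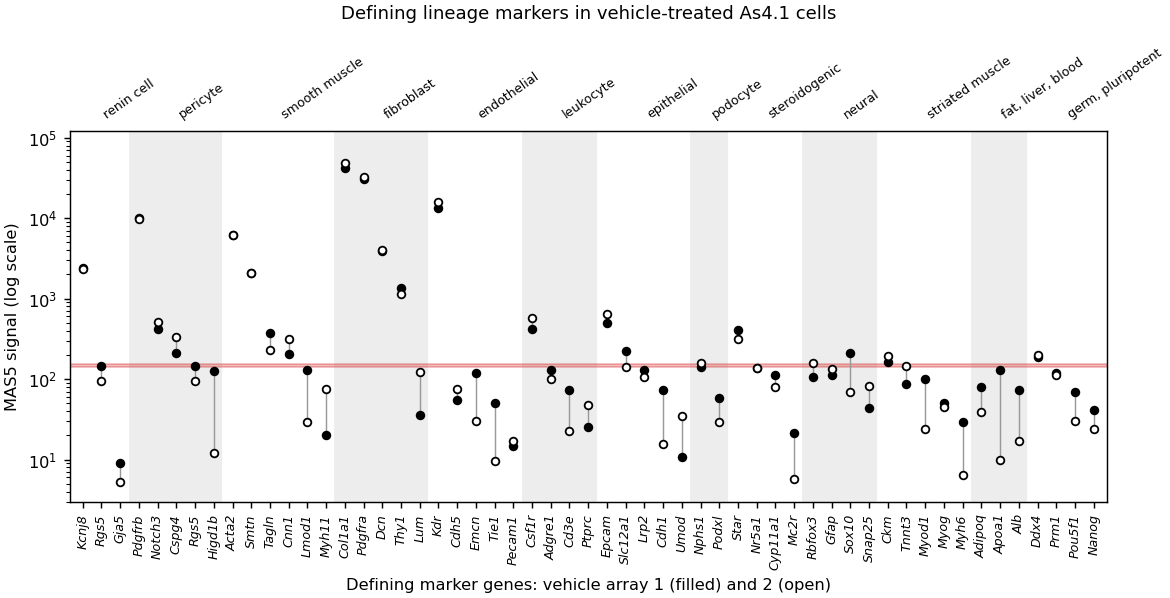
MAS5 signal (vertical log axis) of the defining marker genes of 13 lineage groups (columns, shaded by group) on vehicle array 1 (filled) and 2 (open), with the background levels as a red band. Col1a1, Pdgfra, Pdgfrb, Kdr and Acta2 lie far above the band, and Gja5, Pecam1, Ptprc, Umod, Myh6 and Mc2r lie far below it.

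Growth and metabolism genes were broadly on. Cell cycle genes were above background in 38 of 39 cases (97.4%), with a median of 9485: Pcna read 56973 and 57556, the ribonucleotide reductase subunit Rrm2 41655 and 40931, topoisomerase Top2a 38612 and 41564 and the helicase subunit Mcm5 35195 and 36723. All 17 glycolysis genes and all 26 translation and RNA-handling factors were above background, as were 46 of 50 ribosomal proteins, with a median of 53073.

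Promoters of genes above and near background differed in base composition. In the 250 bases before the start, genes above background held a median of 17 CG dinucleotides and those near it 5. The GC box GGGCGG, read on both strands, stood in 63.3% of 7114 promoters of genes above background, in 29.1% of 3952 near it and in 50.3% of all 11791. TATAAA on the gene's strand stood in 4.0%, 10.1% and 6.2% of them, and CCAAT on both strands in 37.5%, 34.4% and 36.1%. The last 120 bases before the start are shown for 3 of the 5 brightest genes and for 3 markers near background, with each CG in capitals, from RefSeq on GRCm38.p6 and 5' to 3' on the gene's strand, because they show the contrast directly.
Rps3a1 (chr3:86142669-86142788, minus strand): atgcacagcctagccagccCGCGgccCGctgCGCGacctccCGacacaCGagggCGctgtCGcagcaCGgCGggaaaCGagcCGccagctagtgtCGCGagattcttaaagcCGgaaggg
Eef1a1 (chr9:78481725-78481844, minus strand): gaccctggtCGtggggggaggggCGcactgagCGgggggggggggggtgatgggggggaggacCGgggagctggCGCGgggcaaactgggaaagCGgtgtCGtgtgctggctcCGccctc
Rplp0 (chr5:115559347-115559466, plus strand): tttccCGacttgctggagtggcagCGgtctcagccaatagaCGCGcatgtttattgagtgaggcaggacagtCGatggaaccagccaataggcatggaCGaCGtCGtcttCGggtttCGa
Gja5 (chr3:97032282-97032401, plus strand): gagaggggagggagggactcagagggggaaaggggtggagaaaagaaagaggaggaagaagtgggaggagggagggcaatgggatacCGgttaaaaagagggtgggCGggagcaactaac
Myh6 (chr14:54966608-54966727, minus strand): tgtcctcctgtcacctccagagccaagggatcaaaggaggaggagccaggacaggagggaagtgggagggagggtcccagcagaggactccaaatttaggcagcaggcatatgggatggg
Umod (chr7:119479263-119479382, minus strand): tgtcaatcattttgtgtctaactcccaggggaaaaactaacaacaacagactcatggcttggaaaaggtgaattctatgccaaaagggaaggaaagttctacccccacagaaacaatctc
The first 3 hold 16, 9 and 10 CG dinucleotides in these 120 bases, and the others 2, 0 and 0. The 6 were chosen as examples, and the shares above are the measurement.

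How far the vehicle state held under treatment was read from both treated groups with limma on all 6 arrays, with Benjamini-Hochberg adjustment over 22519 probe sets at a threshold of 0.05. Both comparisons share the vehicle arrays, which also chose each gene's probe set. The p-values rest on the spread between the 2 cultures of a group, pooled over the 3 groups and moderated by limma with a trend on signal. The beta-actin ratio given above also differed between the 3 groups without overlap, and its part in these results was not tested. Hydrogen peroxide changed 759 of 10879 genes (6.98%), with 430 higher (3.95%) and 329 lower (3.02%). The interleukin changed 1799 (16.5%), with 1037 higher (9.53%) and 762 lower (7%). Over all genes tested, leaving out vehicle array 1 left 80 higher and 50 lower with hydrogen peroxide and 503 and 285 with the interleukin. Leaving out vehicle array 2 left 102 and 61, and 552 and 263. Without hydrogen peroxide array 1 the counts were 103 and 130, without its array 2 they were 155 and 141, and without interleukin array 1 they were 679 and 497. Without interleukin array 2, which had the high background level, more genes were called in both directions than without any other array of that comparison. Of the 10712 tested genes above background in vehicle 739 (6.9%) and 1756 (16.4%) were called. In the ranking, 25 of the 30 brightest genes were again among the 30 brightest with hydrogen peroxide and 26 with the interleukin, and 1 of 46 ribosomal proteins was called in each comparison. Among the 30, Gsn fell with the interleukin, from 71473 and 73807 to 45092 and 48088, a log2 change of -0.64 ± 0.07 (SE, limma adjusted p = 0.000148). With hydrogen peroxide it read 55030 and 53099, a change of -0.43 ± 0.07 (limma adjusted p = 0.00595), and the call was lost without either vehicle array, with an adjusted p of up to 0.0765 without vehicle array 2. With the interleukin Actg1 also fell, to 54785 and 60426, a change of -0.31 ± 0.07 (limma adjusted p = 0.0122), and Fth1 rose, to 78644 and 83593, a change of 0.30 ± 0.06 (limma adjusted p = 0.00989). The calls of both were lost without either vehicle array, and that of Actg1 also without interleukin array 1, with an adjusted p of up to 0.114 for Actg1 without vehicle array 2 and 0.0836 for Fth1 without vehicle array 1.

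With hydrogen peroxide, of 22 collagens 4 were lower and 1 higher, with 3 or 4 lower when any 1 array was left out. Of 17 fibroblast markers tested 7 were lower and 1 was higher, with 5 to 7 lower when any 1 array was left out, and the list's median log2 change was -0.33 beside 0.05 for all genes tested. Dpt fell from 42974 and 36865 to 21025 and 16768, a log2 change of -1.08 ± 0.13 (SE, limma adjusted p = 0.00173). Col1a1 fell from 42337 and 48001 to 27476 and 26449, a change of -0.74 ± 0.08 (adjusted p = 0.0013), and Fap, a fibroblast protease, from 3200 and 2551 to 1225 and 1193, a change of -1.24 ± 0.16 (adjusted p = 0.0025). The marker that rose was Cd44, from 13149 and 13813 to 21954 and 21303, a change of 0.68 ± 0.09 (adjusted p = 0.00266). In each of these genes the 2 groups did not overlap, and each call held with any 1 array left out. Of 39 matrix glycoproteins 9 were lower and 1 higher, with 3 lower without vehicle array 1 and 5 without vehicle array 2. Mgp fell from 26142 and 26382 to 11765 and 9113, a change of -1.34 ± 0.11 (adjusted p = 0.000316).

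Of 23 tested genes of renin and juxtaglomerular cells 7 were lower and 1 higher with hydrogen peroxide, but 1 lower remained called without either vehicle array, 3 without hydrogen peroxide array 1 and 2 without array 2. Kcnj8 fell from 2405 and 2327 to 850 and 672, a log2 change of -1.65 ± 0.21 (SE, limma adjusted p = 0.00255), and its call held in each such fit. Foxd1 fell from 2313 and 1992 to 1001 and 1185, a change of -0.98 ± 0.16 (adjusted p = 0.0066), and the call was lost without vehicle array 1, with an adjusted p of 0.0841, and without hydrogen peroxide array 1. Of 27 tested Hox genes none passed the limma threshold. An unadjusted limma p under 0.05 was found for 8 of them, beside 5034 of all 22519 probe sets tested. A variance model without the trend on signal left 57 of 1282 called probe sets, so the hydrogen peroxide calls depend on that model: of 76 calls among the named genes 3 held under it, and those of Dpt, Col1a1, Fap, Cd44, Mgp, Kcnj8 and Foxd1 did not.

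With the interleukin, matrix glycoproteins and cytokine receptors were more often higher than lower, and G-protein-coupled receptors were more often lower. Beside these lists, 9.53% of all genes tested were higher and 7% lower. Of 39 matrix glycoproteins 17 were higher and 4 lower, with 10 higher without vehicle array 1, and of 33 cytokine receptors 11 were higher and 0 lower, with 10 to 12 higher when any 1 array was left out. Dcn rose from 3905 and 4046 to 14683 and 17427, a log2 change of 2.01 ± 0.12 (SE, limma adjusted p = 4.31e-06), and Osmr from 6812 and 7769 to 14092 and 13936, a change of 0.95 ± 0.10 (adjusted p = 0.00019). Il13ra1, a cytokine receptor above background in vehicle at 663.5 and 547.3, read 3843 and 3684, a change of 2.64 ± 0.19 (adjusted p = 1.2e-05). Of 37 G-protein-coupled receptors 3 were higher and 9 lower, with 4 lower without either vehicle array or interleukin array 1. Of 51 receptor kinases 9 were higher and 5 lower, with 5 and 3 without vehicle array 1, 6 and 2 without vehicle array 2, and 7 and 2 without interleukin array 1. Of 17 glycolysis genes 13 were higher, falling to 6 without vehicle array 1. Cell cycle genes were lower in 17 of 39 cases and higher in 2, with 6 lower without either vehicle array and 8 without interleukin array 1.

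Regulators and channels above background in vehicle changed in both directions with the interleukin, and 5 of them are described here. Others called included Cebpd and Junb, higher by a log2 change of 3.17 and 1.55. Klf4 and Nr3c1 were lower, at -0.96 and -0.84. Zfp423, a zinc finger factor, fell from 1934 and 2311 to 412.3 and 423.2, a log2 change of -2.34 ± 0.16 (SE, limma adjusted p = 1e-05), Pde3b from 12777 and 13588 to 6132 and 7023, a change of -1.01 ± 0.10 (adjusted p = 0.000148), and Vdr from 8408 and 7657 to 3966 and 4919, a change of -0.86 ± 0.12 (adjusted p = 0.00112). Kcne4 fell from 13326 and 13751 to 6854 and 8375, a change of -0.84 ± 0.11 (adjusted p = 0.000545), and Kcnj11 rose from 2545 and 2934 to 6542 and 5112, a change of 1.08 ± 0.15 (adjusted p = 0.000996). These 5 calls held with any 1 array left out. Of 27 Hox genes 2 were higher and 2 lower, near the shares of all genes tested, and each of these 4 calls was lost without at least 1 array.

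**Figure D5:**
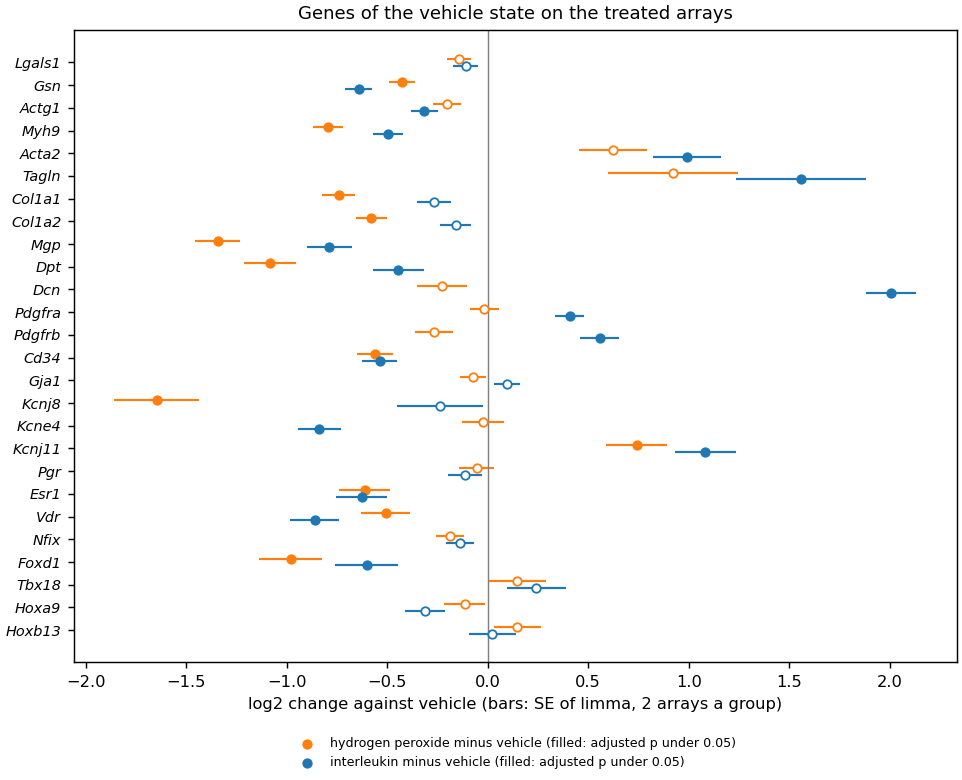
Log2 change against vehicle (horizontal axis) of 26 genes of the vehicle state (rows) with hydrogen peroxide (orange) and the interleukin (blue); bars are the SE of limma with 2 arrays a group, and filled points passed an adjusted p of 0.05. Lgals1, Gja1, Pgr, Nfix and Hoxb13 lie near 0 with both treatments and passed in neither, Kcnj8 and Mgp lie far left with hydrogen peroxide, and Dcn lies far right with the interleukin.

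Few genes crossed the background level. With hydrogen peroxide 207 of 6007 genes near background in vehicle (3.45%) were above it on both treated arrays, and 78 of 11024 above it (0.708%) were near it. With the interleukin the counts were 70 (1.17%) and 208 (1.89%). They depended on the high level of interleukin array 2: with the vehicle level used on every array, an alternative chosen after seeing the data, they became 266 and 84, which turns the balance, against 188 and 90 with hydrogen peroxide. Cited1, a transcriptional coregulator at 342.3 and 379.4 in vehicle, read 25.8 and 81.8 with hydrogen peroxide and 20.9 and 35.6 with the interleukin. Klk1, tissue kallikrein, read 1361 and 1258 in vehicle and 114.2 and 104.1 with the interleukin. Perp, a membrane protein gene, read 52.9 and 67.8 in vehicle and 660.9 and 656.6 with hydrogen peroxide. The acute-phase gene Hp read 11.6 and 8.1 in vehicle and 4890 and 8484 with the interleukin, and the growth factor gene Csf3 2629 and 3055. These 5 genes were named after their values were seen.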

How the data were processed

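RNA of 6 cultures was hybridised to 1 array each. The deposited table holds linear intensities that the authors computed with MAS5, according to the submitters' processing notes, which name no version. Of 45101 probe sets 64 controls were left out. The platform annotation, updated through RefSeq gene identifiers, gave 1 symbol to 34945 probe sets, of which 34741 matched RefSeq; 932 had several and 9160 none.

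Signals were log2 transformed without a pseudocount. Background calls and ranks came from Python 3.11.15 with pandas 2.3.3. Tests used limma 3.58.1 (R 4.3.3; lmFit, then eBayes with a trend) over the 22519 probe sets at or above the median mean signal, a lowest geometric mean of 193.7; the steps were tested on simulated data. Means, folds and errors are on the log2 scale where stated. The number of arrays limits the precision.

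The members and the 36 gene lists were chosen with earlier results of these data known, so counts over lists are descriptions. Of 1378 distinct listed genes 1207 were measured. Named genes were the 30 brightest, the 8 brightest above background in each list, defining markers, all renin and juxtaglomerular cell genes, Hox genes above background, and up to 4 members per list of smallest p in a comparison; others are said to be chosen later. Alternatives were other background levels, normalizations, filters, variance models, probe set choices, a replicate block and leaving out each array. Promoter sequences came from the RefSeq table, in which 14452 genes had an entry and 11791 exactly 1.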

Additional observations from a re-analysis of the deposited data

How the results depend on the processing

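The count of genes above background ranged from 9423 to 11784 over 9 alternatives, against 11024. Of the 30 brightest genes 7 stayed when probe sets matching several transcripts were left out and 15 by the median probe set of a gene. Called probe sets with hydrogen peroxide were 1282, against 762 with no filter on signal, 57 with no trend on signal, 825 when probe sets matching several transcripts were left out, and 235 to 675 with 1 array left out; with the interleukin they were 3627, against 1783 with no trend and 1554 to 2962 with 1 array left out. Fewer probe sets or arrays enter some of these fits, and the cause was otherwise not tested. Centring on the 75th percentile gave 602 higher and 879 lower with hydrogen peroxide, against 686 and 596. No named call changed direction. With a replicate block 1170 and 3342 probe sets were called, and 9 of 76 and 7 of 148 named calls were lost; the labels do not say that the numbers pair cultures, and differences between replicates correlated at 0.107 (vehicle and hydrogen peroxide), 0.053 (vehicle and interleukin) and -0.129. Signals near background limit what can be said of dim genes.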
